A study of Mus musculus with 8 samples.

Results

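The Arp2/3 complex is the machine that starts new actin filaments as branches on the sides of existing ones. Its mouse subunits are encoded by Actr2 (Arp2), Actr3 (Arp3), Arpc1a, Arpc1b, Arpc2, Arpc3, Arpc4, Arpc5 and Arpc5l. These genes were taken from the deposited count table by their symbols. They are 9 of the 31894 genes with an identifier, and all 9 passed the filter on low counts that left 13598 genes to test. Arp2 and Arp3 are related to actin and together form the seed of the new branch, while the remaining subunits hold them in place and contact the mother filament. The complex is inactive until nucleation-promoting factors of the WASP and WAVE families bind it, and the branched networks that it builds push the leading edge of migrating cells, those of breast tumors included. Arpc3 was also the target of short hairpin RNAs in other experiments of the study, and the labels of the libraries described here name no hairpin construct.

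Bulk mRNA sequencing was performed on cells sorted by FACS from breast cancer brain metastases (BCBM), to compare tumor cells that keep the E-cad-mCFP reporter (E-cad HI) with those that lost it (E-cad LO). The labels number 4 mice, and each mouse gave 1 library per population, so that 8 libraries, 4 per group, were compared. All 8 libraries share the FVB strain, the genotype label wild type and the brain metastasis tissue, and the tumors grew from PyMT E-cad-mCFP organoids that had been enriched for growth in the brain by serial intracranial transplantation. The sort used the reporter and the dye TO-PRO, the purity check was run on CFP positive cells alone, and the mice received tumor cells at 8 to 20 weeks of age. From images of the reporter in sorted cells, the study also reports that both populations were isolated. It reports Cdh1 among the genes that differ between them, with RT-qPCR beside its sequencing results. Values per library are listed in the order of mice 57, 58, 67 and 70.

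Total counts were 14922074, 13006189, 13437544 and 11876177 in the E-cad HI libraries and 11325146, 9102781, 14313787 and 15769200 in the E-cad LO libraries. Levels are given as CPM, in which counts are scaled to the library total after TMM normalization between libraries. A count of 3, the floor used here, was worth between 0.190 and 0.330 CPM, and every subunit stood far above it in each library. The libraries of mouse 58 stood apart in the noncoding RNA Gm42418, which took 7.67% of the counts in E-cad HI and 14.4% in E-cad LO cells, against 2.23% to 3.93% in the other libraries. Mitochondrial genes took 1.75%, 4.07%, 1.84% and 4.70% of the counts in the E-cad HI libraries and 1.88%, 5.32%, 4.61% and 7.16% in the E-cad LO libraries, the higher share in E-cad LO cells of each mouse. Per the labels, the libraries of mouse 58 also carry a second index sequence that no other library has, so that mouse and index cannot be told apart there. Cdh1, the gene of the protein fused to the reporter, was at 114, 132, 93.5 and 108 CPM in E-cad HI and at 71.6, 181, 84.5 and 59.2 CPM in E-cad LO cells (named outside the rule for named genes, as a check of the sort). The groups overlapped, with E-cad LO cells lower in mice 57, 67 and 70 and higher in mouse 58, and edgeR gave no call for the gene (log2 fold change -0.17, adjusted p = 0.809).

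Per length, the subunit mRNAs differed widely in level. Arpc1b had the highest level, 317 ± 69.6 CPM per kb of exon (SD, n = 8 libraries), and lay above each other subunit in all 8 libraries. Arpc5 (207 ± 47.9 CPM per kb) and Arpc2 (206 ± 25.6) followed and did not differ beyond their spread, since Arpc5 was above Arpc2 in 3 of the 8 libraries. Arpc1a came next with 116 ± 25.9 CPM per kb, below Arpc2 and above Arpc4 in every library. Arpc4 (62.5 ± 12.1) and Actr3 (55.4 ± 5.38) lay close to each other, with Arpc4 the higher in 6 libraries. By this length, the lowest levels per kb were those of Arpc5l (37.7 ± 7.30), Arpc3 (33.3 ± 21.1) and Actr2 (29.8 ± 4.78), which overlapped. Arpc3 was at rank 5 in both libraries of mouse 58 and last of the 9 in each of the 6 others. Actr3b, a paralog of Actr3 outside the 9 members, reached 4.12 ± 2.62 CPM per kb. These levels divide by the union of all annotated exons, and with the longest transcript as the length instead, Arpc3 moved from rank 8 to rank 5, Arpc4 from 5 to 7, Arpc5l from 7 to 9, and Arpc2 and Arpc5 exchanged ranks 2 and 3, while Actr2 went from 9 to 8. For Arpc5l, both lengths (4498 and 4167 bases) far exceed its longest coding transcript, which holds 1275 stretches of 65 bases. Its low rank therefore depends on the length, and levels by coding transcript were not computed.

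Summed over the subunits, E-cad HI libraries held 4547, 3445, 4063 and 4159.9 CPM and E-cad LO libraries 2785, 3081, 3332 and 3595 CPM. Under TMM the sum was lower in the E-cad LO library of each of the 4 mice, but relative to the geometric mean of Ppia and Rpl38, the reference genes of the RT-qPCR of the study, the direction flipped in mice 57 (12.6 to 15.1) and 67 (10.9 to 13.1) and held in mice 58 (11.3 to 8.85) and 70 (11.01 to 10.03). That scaling moves all genes of a library alike, and the median within-mouse log2 ratio of all genes under it was 0.98, -0.19, 0.56 and 0.14, beside 0.017, 0.00048, 0.016 and 0.066 under TMM. Arpc1b alone made up between 39.0% and 48.2% of the sum. In edgeR, 0 of the 9 subunits passed an adjusted p of 0.05 between the populations, against 0% of all 13598 genes tested, while 1 subunit and 1899 genes had an unadjusted p under 0.05. DESeq2 also called 0 subunits, beside 2.64% of all genes (298 higher in E-cad LO cells and 61 lower). When the mouse was added as a replicate block, edgeR called 0 subunits and 0.728% of all genes, each of the 99 higher in E-cad LO cells, and DESeq2 with the block called 0 subunits and 9.23% of all genes, 7.57% higher and 1.65% lower. Fewer cells that express a gene and less of its RNA per cell cannot be told apart in these bulk libraries.

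The log2 fold changes of the subunits had a median of -0.30 (E-cad LO minus E-cad HI) beside 0.065 over all genes tested, and 8 of the 9 were negative, but scaling by Ppia and Rpl38 turned the median to 0.033 and left 4 of 9 negative. That scaling moved the median of all genes up by 0.39 on the log2 scale, to 0.45, so that the subunit median lay below that of all genes by 0.37 under TMM (-0.37) and by 0.42 under this scaling (-0.42). Without mouse 57 the difference under TMM was -0.23, or -0.20 with the replicate block. Ppia was at 1148, 944, 1129 and 1088 CPM in E-cad HI and 632, 996, 713 and 1047 CPM in E-cad LO cells. Rpl38 was at 113, 98.4, 122 and 131 CPM and 53.6, 121, 90.9 and 122 CPM. Both reference genes were thus lower in the E-cad LO library of 3 of 4 mice under TMM scaling. By that scaling their log2 fold changes were -0.35 (Ppia) and -0.26 (Rpl38). Without mouse 57 these were -0.22 and -0.094, and without mouse 58 they were -0.48 and -0.45. Scaled by themselves, with all mice, Ppia had -0.022 and Rpl38 0.029, and for Rpl38 the sign flips. Within mice under TMM, all 9 subunits were lower in E-cad LO cells of mouse 57 (median log2 ratio -0.76), but scaling by Ppia and Rpl38 left 1 of 9 lower there (median 0.20, beside 0.98 for all genes). In mouse 67, 8 of 9 were lower under TMM (median -0.22) and 2 of 9 when scaled by Ppia and Rpl38 (median 0.32, beside 0.56 for all genes). Mouse 58 had 7 of 9 lower under TMM (median -0.036) and 8 of 9 when scaled by Ppia and Rpl38 (median -0.22), and mouse 70 had 8 of 9 lower under both (medians -0.13 and -0.053). The subunit median was below the median of all genes in each of the 4 mice, a gap that the scaling of a library cannot change, although the sign of the subunit median flips in mice 57 and 67 when scaled by Ppia and Rpl38. Under TMM, 6 of the 9 subunits were lower in all 4 mice, as were 14.2% of all tested genes (1928), and 0 of 9 were higher in all 4, as were 16.8% of genes, a direction that scaling by Ppia and Rpl38 flips in mice 57 and 67.

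**Figure D1:**
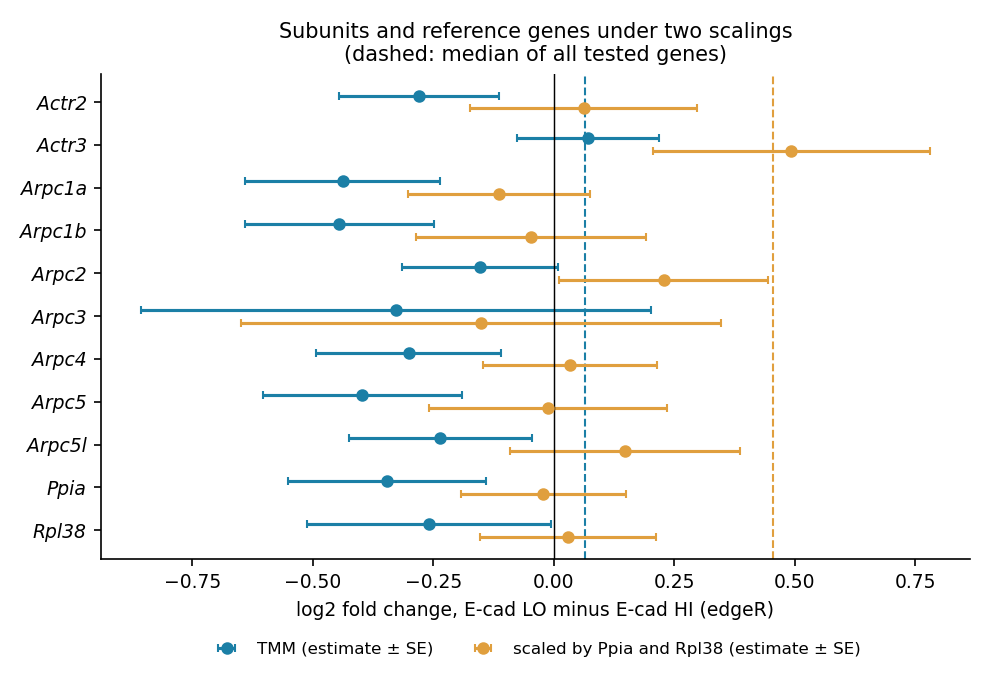
Log2 fold change (E-cad LO minus E-cad HI, x axis) of each subunit, Ppia and Rpl38, as edgeR estimated it with TMM (blue) and with scaling by Ppia and Rpl38 (orange); points are estimates, bars are ± SE (worked out from the F statistic) and dashed lines are the medians of all 13598 genes tested. Of the 9 subunits, 8 lie below 0 with TMM, and scaling by Ppia and Rpl38 flips 4 of these to positive values.

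Actr2 and Actr3 encode the actin-related pair of the complex. Actr2 (ENSMUSG00000020152, chromosome 11, 20062304 to 20112913, GRCm38) was at 166, 196, 163 and 156 CPM in E-cad HI and 107, 152, 159 and 143 CPM in E-cad LO cells. The E-cad LO value was below the E-cad HI value of the same mouse in each case, most of all in mouse 57, but the groups overlapped, since mouse 67 had 159 CPM in E-cad LO cells. The means were 170.2 ± 17.8 and 140.2 ± 22.9 CPM (SD, n = 4 each), and the log2 fold change of -0.28 (SE 0.17) did not pass the test (adjusted p = 0.449), with 0.062 under scaling by Ppia and Rpl38. Actr3 (ENSMUSG00000026341, chromosome 1, 125392905 to 125435727) had 295, 245, 232 and 229 CPM in E-cad HI and 285, 240.1, 273 and 252 CPM in E-cad LO cells. It was the steadiest subunit and the only one with a positive estimate under TMM (0.071, SE 0.15, adjusted p = 0.827), lower in E-cad LO cells in mice 57 and 58 and higher in mice 67 and 70. Its log2 fold change was 0.49 when libraries were scaled by Ppia and Rpl38 (adjusted p = 0.382, with 0.382 to 0.966 over the alternatives). Of the 65-base stretches in its longest coding transcript, 40.02% also occur in processed pseudogenes, Gm8822 and Gm15899, which held 0 to 4 and 0 to 1 counts per library. How reads with several matches were counted is not stated, so the level of Actr3 is uncertain to that extent.

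Arpc2 and Arpc4 form the structural core that clamps the complex to the mother filament. For Arpc2 (ENSMUSG00000006304, chromosome 1, 74236084 to 74268209), the E-cad HI libraries gave 456, 373, 469.6 and 466 CPM and the E-cad LO libraries 332, 373, 444 and 438 CPM. Mouse 58 was the low E-cad HI library and showed practically the same level in both populations, whereas mouse 57 had the widest gap. The log2 fold change was -0.15 (SE 0.16, adjusted p = 0.651) and turned to 0.23 when scaled by Ppia and Rpl38. For Arpc4 (ENSMUSG00000079426, chromosome 6, 113378115 to 113390448), the values were 175, 130.3, 174 and 162 CPM in E-cad HI and 95.2, 157, 119 and 149 CPM in E-cad LO cells. Mouse 58 went against the other 3, with the higher level in E-cad LO cells, and the within-mouse log2 ratios were -0.87, 0.27, -0.55 and -0.12. Its log2 fold change of -0.30 (SE 0.19) gave an adjusted p of 0.473, and scaling by Ppia and Rpl38 made it 0.033. Arpc4 shares 283 exon bases with Ttll3 on the same strand, and 9.93% of its 65-base stretches occur there too. Ttll3 had 6 to 70 counts per library, at most 5.46% of the count of Arpc4, and how reads in the overlap were counted is not stated.

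Arpc1a and Arpc1b are neighbouring genes on chromosome 5 for alternative versions of the same subunit, a WD-repeat protein that takes part in activation by nucleation-promoting factors. Arpc1a (ENSMUSG00000029621, chromosome 5, 145083830 to 145108761) was at 359.6, 316, 304 and 389.6 CPM in E-cad HI and 167, 281, 268 and 295 CPM in E-cad LO cells. It was the only subunit whose groups did not overlap, each E-cad LO library lying below each E-cad HI library, a pattern that 4.2% of all tested genes (571) showed in the same direction under TMM. The means were 342 ± 39.6 and 253 ± 58.1 CPM (SD, n = 4 each), and the log2 fold change of -0.44 (SE 0.20) had an adjusted p of 0.368 in edgeR and 0.260 with the replicate block (0.183 to 0.731 over the alternatives). Mouse 57 had the lowest of the 8 values, in E-cad LO cells, and gave a within-mouse log2 ratio of -1.10, against -0.17, -0.18 and -0.40 in mice 58, 67 and 70. Arpc1b (ENSMUSG00000029622, chromosome 5, 145114215 to 145130705), the most abundant subunit, gave 2193, 1445, 1867 and 1972 CPM in E-cad HI and 1291, 1201, 1377 and 1623 CPM in E-cad LO cells. All 4 mice had less in E-cad LO cells, but the groups overlapped because mouse 58 was low in both populations. Its log2 fold change was -0.45 (SE 0.20), with an adjusted p of 0.354 in edgeR and of 0.0897 in DESeq2 with the replicate block, the smallest that any subunit reached in the alternatives tried (range for Arpc1b 0.0897 to 0.919). Scaled by Ppia and Rpl38, the estimates shrank to -0.11 for Arpc1a and -0.047 for Arpc1b. Arpc1b overlaps Pdap1 on the opposite strand by 931 exon bases, and 37.13% of its 65-base stretches also occur in other genes. Pdap1 had 514 to 950 counts per library, at most 5.06% of the count of Arpc1b. Most of the shared stretches lie in Pdap1 (867) and in the processed pseudogene Gm5637 (235), which held 11 to 47 counts per library. How reads there were counted is not stated, so the level of Arpc1b, its share of the sum and its ratio to Arpc1a are uncertain to that extent.

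Arpc5 and Arpc5l again encode alternative versions of one subunit, which joins Arpc1 to the rest of the complex. Arpc5 (ENSMUSG00000008475, chromosome 1, 152766542 to 152775597) had 625, 414, 606 and 493 CPM in E-cad HI and 325, 349.6, 498 and 451 CPM in E-cad LO cells, lower in the E-cad LO library of each mouse. The groups overlapped, as the E-cad HI library of mouse 58 lay below the E-cad LO libraries of mice 67 and 70. Its log2 fold change was -0.40 (SE 0.21, adjusted p = 0.404), and it was -0.012 under scaling by Ppia and Rpl38. Arpc5l (ENSMUSG00000026755, chromosome 2, 39005348 to 39015877) had 206, 145, 163 and 221 CPM in E-cad HI and 145, 141, 139.8 and 197 CPM in E-cad LO cells. Mouse 70 was the highest mouse in each population, and the other 3 E-cad LO libraries lay between 139.8 and 145 CPM. The log2 fold change of -0.24 (SE 0.19) did not pass the test (adjusted p = 0.550) and turned to 0.15 with scaling by Ppia and Rpl38. Arpc5l shares 62 exon bases with Wdr38 on the same strand, which held 11 to 50 counts per library, at most 2.71% of the count of Arpc5l. It also shares 62 with Rpl35 on the opposite strand, which held 1811 to 4681 counts per library, so reads in that overlap are uncertain if counting ignored the strand, which is not stated.

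Arpc3 encodes the small subunit that contacts Arp3. Its gene lies on chromosome 5 (122391878 to 122414184, ENSMUSG00000029465). Levels were 72.2, 180.0, 84.4 and 72.5 CPM in E-cad HI and 38.0, 187, 54.3 and 47.7 CPM in E-cad LO cells. Both libraries of mouse 58 stood far above the 6 others, and within mice the E-cad LO level was lower in mice 57, 67 and 70 and nearly equal in mouse 58. The log2 fold change was -0.33 with an SE of 0.53, the widest of the subunits, and an adjusted p of 0.772. It was -0.15 under scaling by Ppia and Rpl38 and -0.70 without mouse 58 (unadjusted p = 0.00840, adjusted p = 0.307). With the replicate block, which takes out the level of each mouse, the estimate was -0.53 (SE 0.19), with an unadjusted p of 0.0265 in edgeR and an adjusted p of 0.211, the smallest among the subunits in that fit (over the alternatives, the adjusted p of Arpc3 ranged from 0.137 to 0.924). Within-mouse log2 ratios were -0.92, 0.052, -0.63 and -0.60.

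**Figure D2:**
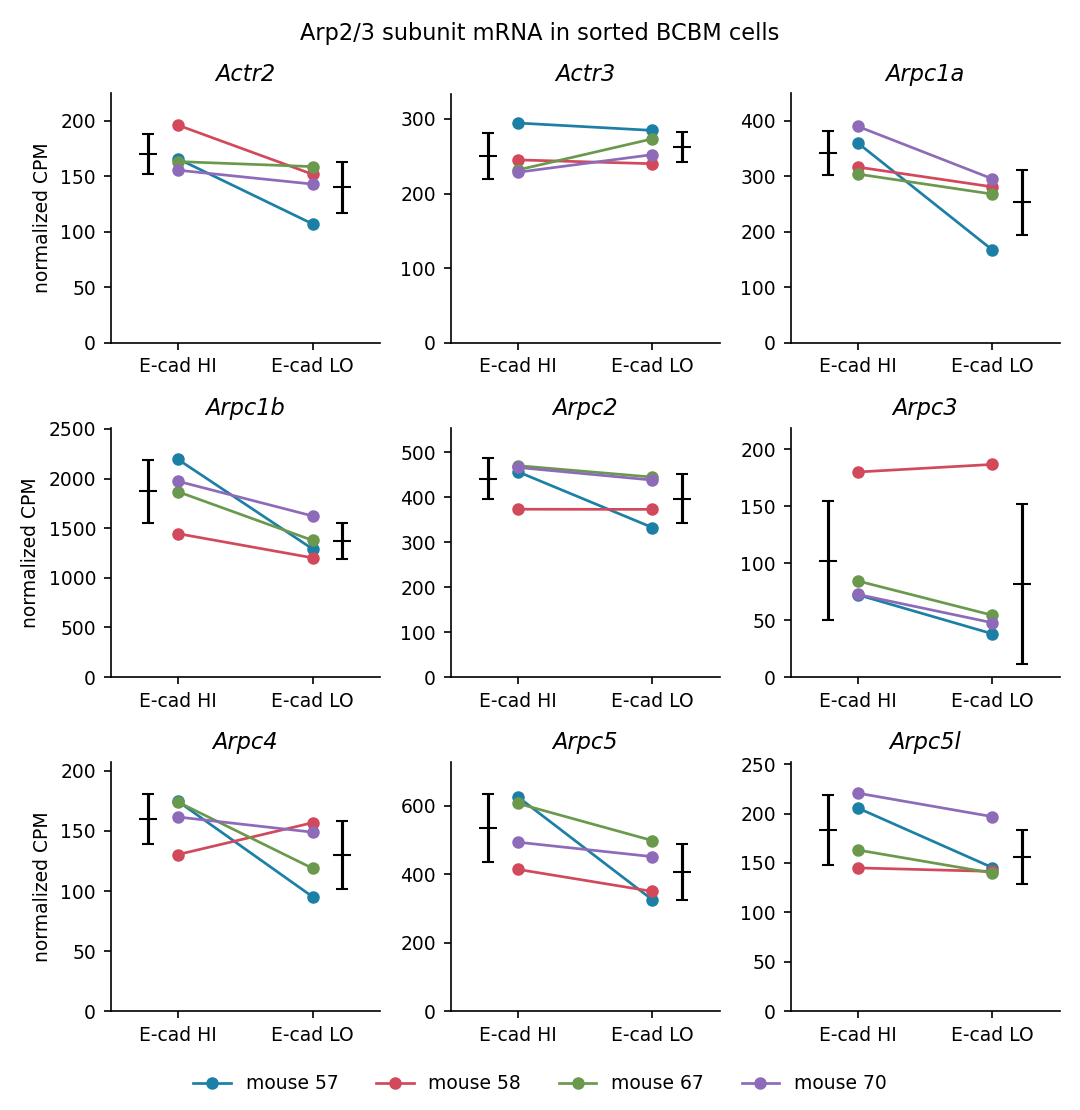
Normalized CPM (y axis, from 0) of the 9 subunits in each library; points are libraries, lines join the libraries of a mouse, and black bars beside the points give mean ± SD of the 4 libraries. Arpc3 in mouse 58 lies at 180.0 and 187 CPM, above 38.0 to 84.4 CPM in the other mice, and the groups of Arpc1a do not overlap.

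Between mice, an edgeR F test of the mouse terms with the population in the model called 1 of the 9 subunits, Arpc3, against 1.96% of all genes (266 of 13598). Arpc3 had F = 21.8 and an adjusted p of 0.0290, and the likelihood ratio test of DESeq2 called Arpc3 as well (adjusted p = 1.61e-08), against 9.26% of all genes. For the other subunits, adjusted p between mice lay between 0.467 and 0.934 in edgeR. The difference rested on mouse 58: its level was 2.36-fold the mean of the others in E-cad HI cells (76.4 ± 6.93 CPM, SD, n = 3) and 4.00-fold in E-cad LO cells (46.6 ± 8.19 CPM, SD, n = 3). Without mouse 58, the adjusted p of Arpc3 between mice was 0.759, and 1.77% of all genes were called. It was 0.00289 without mouse 57 (5.98% of genes called), 0.0799 without mouse 67 (1.16%) and 0.295 without mouse 70, a subset in which edgeR called 0 of 13461 genes between mice, though 1069 had an unadjusted p under 0.05. Scaling by Ppia and Rpl38 left Arpc3 uncalled, with an adjusted p of 0.0699. Both libraries of mouse 58 lay above all 6 others for 832 tested genes (6.12%), and Arpc3 was the only subunit among them.

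The genes around Arpc3 did not share its level in mouse 58. Of the genes within 100 kb, 7 were tested (Pptc7, Rad9b, Vps29, Fam216a, Gpn3, Anapc7 and Atp2a2), and the smallest adjusted p between mice among them was 0.523. Mouse 58 stood between 0.742-fold and 1.45-fold of the mean of the others in E-cad HI cells and between 0.309-fold and 0.956-fold in E-cad LO cells for these neighbours. Gpn3, the next gene upstream, was at 95.5, 77.0, 92.2 and 102 CPM in E-cad HI and 72.1, 55.6, 78.2 and 83.3 CPM in E-cad LO cells. Anapc7, the next gene downstream, was at 88.6, 94.9, 79.3 and 85.2 CPM and 131, 82.9, 85.0 and 68.6 CPM. Neither neighbour had mouse 58 above the other mice in both populations. No 65-base stretch of the longest coding transcript of Arpc3 occurs in another annotated gene, and the exons outside that transcript were not checked.

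The RT-qPCR primers that the study lists for Arpc3 are shown because they mark the stretch of Arpc3 that was amplified. Both were placed on GENCODE M21 transcripts of the GRCm38 build, and in the forward primer, capitals mark the 6 coding bases that begin at the start codon. Each reads 5′ to 3′:
Arpc3-F: ggacaccgtcaagATGCCG
Arpc3-R: GCCTTGAAGTAGTAGATGGCTT
The forward primer matches exon 1 of 7 (chr5:122391979-122391997, plus strand) in 3 of 8 annotated Arpc3 transcripts. The reverse primer, coding throughout, matches the opposite strand of exon 3 (chr5:122401671-122401692) in 6 of 8. The product spans 165 bases, and neither primer matched a transcript of another gene.

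Ratios of paralogs within a library do not depend on the scaling between libraries. The log2 ratio of Arpc1b to Arpc1a counts was 2.61, 2.19, 2.62 and 2.34 in E-cad HI and 2.95, 2.097, 2.36 and 2.46 in E-cad LO cells. Arpc1b held between 4.28-fold and 7.72-fold the count of Arpc1a, and the groups overlapped with 2 mice in each direction. The mean difference was 0.027, with p = 0.886 in a two-sided exact permutation test of 4 against 4 libraries. Arpc5l to Arpc5 gave -1.61, -1.51, -1.89 and -1.16 in E-cad HI and -1.16, -1.31, -1.83 and -1.20 in E-cad LO cells. The ratio was the higher one for E-cad LO cells of 3 mice, with a mean difference of 0.17 (exact permutation p = 0.486). Without mouse 57 that difference was 0.078. Actr3b was the minor partner of Actr3 throughout, at 6.83, 8.99, 7.06 and 13.1 CPM in E-cad HI and 2.67, 14.8, 4.51 and 22.1 CPM in E-cad LO cells. Its log2 ratio to Actr3 was -5.42, -4.76, -5.03 and -4.12 in E-cad HI and -6.71, -4.02, -5.91 and -3.51 in E-cad LO cells, a mean difference of -0.20 (exact permutation p = 0.8286). The E-cad LO libraries spread more widely than the E-cad HI libraries, low in mice 57 and 67 and high in mice 58 and 70. After adjustment over the 3 ratios, the exact permutation p was 0.886 for each, and the smallest p that this unpaired test allows is 0.0286. An exact sign-flip test within mice gave p = 0.875, 0.25 and 0.75 for the ratios in the order above. The smallest p that it allows is 0.125.

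Across the 8 libraries, most pairs of subunit mRNAs had a positive correlation, but every pair with Actr3 had a negative one. Pairs of genes outside the subunits were not compared. On log2(CPM + 0.5), 24 of the 36 pairs of subunits had a positive Pearson r, with a median of 0.533 (n = 8 libraries, which share mice in pairs and depend on 1 scaling, so that this is a description). The highest r among the pairs was 0.906, between Arpc5 and Arpc2. Against the mean of the 8 other subunits, Arpc1a had the highest r (0.932), followed by Arpc4 (0.863) and Actr2 (0.781), and Arpc3 (0.0994) and Actr3 (-0.443) had the lowest. The tested genes outside the members most like the mean of the subunits were Abhd14b (r = 0.994), Pold2 (0.992), Kcnn4 (0.992), Ceacam20 (0.990) and Acaa1a (0.990). Kcnn4, the most abundant of these, was at 618, 496, 514 and 571 CPM in E-cad HI and 189.6, 384, 358 and 399.9 CPM in E-cad LO cells, with its lowest value in the E-cad LO library of mouse 57, as for 6 of the 9 subunits. Most like Arpc3 were Tmem94 (r = 0.979), Dock8 (0.974), Mtss1 (0.973), Zfp687 (0.969) and Lman2l (0.967). Tmem94 was at 48.9, 120.5, 64.1 and 66.6 CPM in E-cad HI and 38.7, 135, 46.7 and 41.1 CPM in E-cad LO cells, highest in both libraries of mouse 58.

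The genes that activate, inhibit or work beside the complex were followed in 8 lists of 64 genes, of which 63 were tested (Was, with at most 8 counts in a library, was not). In edgeR, 0 of the 63 passed between the populations, with and without the replicate block, while 5 had an unadjusted p under 0.05 without the block and 9 with it. DESeq2 called 1 gene higher, Cfl2 (adjusted p = 0.0313, against 0.262 in edgeR and 0.145 in edgeR with the replicate block), and DESeq2 with the replicate block called 6 of the 63 higher in E-cad LO cells and 1 lower, beside 7.57% and 1.65% of all genes. Median log2 fold changes were 0.11 for nucleation-promoting factors, 0.20 for the WAVE regulatory complex, 0.14 for the WASH complex and 1.08 for the WIP family (3 genes, with low counts for Wipf1 and Wipf3), beside 0.065 for all genes. They were -0.20 for the upstream GTPases, -0.092 for inhibitors and debranching factors, 0.30 for formins and other nucleators and 0.065 for actin and its turnover factors. Of the negative estimates among the named genes of these lists, that of Rac3 alone stays negative when libraries are scaled by Ppia and Rpl38.

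Among activators, cortactin, which binds the complex and stabilizes branches, was the most abundant (Cttn, 343, 344, 369 and 245 CPM in E-cad HI and 318, 288, 237 and 207 CPM in E-cad LO cells). It was lower in the E-cad LO library of each mouse, with a log2 fold change of -0.31 (adjusted p = 0.469) that turned to 0.13 when scaled by Ppia and Rpl38. Wasf2, a WAVE protein, had -0.012, and Jmy -0.13. Of the WAVE regulatory complex, which holds WAVE proteins silent until Rac binds, the most abundant members were Cyfip1 (-0.15), Brk1 (-0.10) and Abi1 (0.11). The WASH complex activates Arp2/3 on endosomes, and its most abundant genes had 0.40 (Washc2), 0.59 (Washc4) and 0.14 (Washc5), each listed in the table under an older symbol. Wipf2 (0.16), Wipf1 (1.19) and Wipf3 (1.08) encode partners of WASP proteins and together had at most 26.5 CPM in a library. Counts of Wipf3 were 0, 19, 0 and 14 in E-cad HI and 2, 14, 31 and 26 in E-cad LO cells. Those of Wipf1 were 11, 25, 3 and 33 and 8, 16, 49 and 107, so both estimates rest on low counts. Leaving out 1 mouse moved several of these estimates. Washc4 had 0.26, Washc5 0.031, Brk1 -0.0068, Wipf2 0.039 and Jmy -0.072 without mouse 57. Wipf2 had 0.32 and Brk1 -0.25 without mouse 58. Cyfip1 had -0.028, Cttn -0.18, Jmy -0.24, Abi1 0.053 and Wipf3 0.40 without mouse 67. Washc2 had 0.20 and Cyfip1 -0.33 without mouse 70.

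Rac1, the GTPase that acts on the WAVE complex, had 850.0, 667, 735 and 484 CPM in E-cad HI and 329, 928, 518 and 606 CPM in E-cad LO cells. Mice 57 and 67 had less and mice 58 and 70 more in E-cad LO cells, and the log2 fold change was -0.20 (adjusted p = 0.761) and 0.068 scaled by Ppia and Rpl38. Cdc42 had -0.20 and Rac3 -0.92, the latter called lower by DESeq2 with the replicate block (log2 fold change -1.34, adjusted p = 0.0279, with a range over the alternatives of 0.0279 to 0.843). Among factors that restrain branching, Gmfb had 0.27, Coro1b -0.36 and Coro1c 0.20. For Gmfb, mouse 70 alone had the higher level in E-cad LO cells, and the estimate was -0.13 without that mouse, and Coro1c had 0.079 without mouse 57. Formins build unbranched filaments, and their most abundant genes were at -0.14 (Diaph1), 0.10 (Daam1) and 0.32 (Diaph3). Without mouse 57, Daam1 had 0.022 and Diaph3 0.050, and Rac3 had -0.47 without mouse 57 and -1.89 without mouse 58. Cdc42 had -0.099 without mouse 57 and -0.31 without mouse 58. Diaph1 had -0.067 without mouse 57, -0.26 without mouse 67 and -0.061 without mouse 70. Of actin itself, Actb was at 8736, 6707, 9066 and 8094 CPM in E-cad HI and 9464, 8191, 9277 and 8231 CPM in E-cad LO cells, higher in the E-cad LO library of each mouse (log2 fold change 0.11, adjusted p = 0.808). Pfn1 (-0.38) and Cfl1 (-0.028) encode profilin and cofilin, which feed and sever filaments. None of the values of these genes passed the edgeR test.

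Markers of the tissue were read beside the subunits, since E-cad LO cells are defined by the loss of a reporter. Of 10 epithelial tumor cell markers, 10 were tested and 0 were called by edgeR or DESeq2, with or without the replicate block (unadjusted p under 0.05 in edgeR for 0 without and 1 with it). Their summed level was 10267, 7524, 10140.1 and 9036 CPM in E-cad HI and 5616, 9177, 14106 and 7969.8 CPM in E-cad LO cells, with Krt18 the most abundant. The sum was lower in E-cad LO cells in mice 57 and 70 and higher in mice 58 and 67. It weights the abundant keratins most: in mouse 67, Krt18 alone went from 3485 CPM (E-cad HI) to 6602 CPM (E-cad LO). Counted by gene under TMM, 7 of the 10 epithelial markers had a negative log2 fold change and 3 a positive one (median -0.17). Of 18 markers of microglia and macrophages, all 18 had a positive log2 fold change, and edgeR called 0 without the replicate block (8 at an unadjusted p under 0.05, 6 called by DESeq2) and 6 higher in E-cad LO cells with it, while DESeq2 with the block called 17 higher. Their sum was 46.1, 141, 203 and 507 CPM in E-cad HI and 306, 360.0, 1348 and 1706 CPM in E-cad LO cells, led by Ctss, and was higher in E-cad LO cells of each mouse.

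Oligodendrocyte markers (8 of 8 tested, 2 called higher by edgeR with the replicate block and 7 by DESeq2 with it) summed to 554, 1639.9, 963 and 8618 CPM in E-cad HI and 1321, 3789, 4322 and 34587 CPM in E-cad LO cells, with Mbp the most abundant. Astrocyte markers (8 of 8 tested, 3 called higher by edgeR with the replicate block and 6 by DESeq2 with it) summed to 1146, 1151, 1309.9 and 3557 CPM and 723, 1462, 1978 and 9881 CPM, with Aldoc the most abundant. Aldoc made up most of the sum in each E-cad HI library (1005, 689, 1026 and 2233 CPM). Gja1 was at 127, 165, 202 and 270 CPM there, and Gfap at 2.09, 88.7, 28.2 and 339 CPM. Neuron markers (8 of 8 tested, 1 called higher by edgeR with the replicate block and 5 by DESeq2 with it) summed to 30.9, 141, 67.5 and 148 CPM and 40.0, 241, 208 and 499 CPM, with Map2 the most abundant. Mouse 70 had the highest sum of each of these 3 lists in both populations, and E-cad LO cells were above E-cad HI cells in each mouse except for astrocyte markers in mouse 57, where Aldoc went from 1005 to 124 CPM and 6 of the 7 other astrocyte markers were higher in E-cad LO cells.

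Fibroblast markers (6 of 7 tested) had 0 calls in edgeR with the replicate block, 3 at an unadjusted p under 0.05 and 2 calls in DESeq2 with the block, and summed to 8.15, 9.45, 6.76 and 20.5 CPM in E-cad HI and 1182, 21.4, 20.9 and 46.3 CPM in E-cad LO cells. The E-cad LO library of mouse 57 stood far above the others, with Col1a1 as the most abundant marker. That library was the lowest of the 8 in its summed subunits under TMM, but the highest relative to Ppia and Rpl38 (15.1). Endothelial markers (5 of 7 tested) had 0 calls in edgeR with the replicate block, 1 at an unadjusted p under 0.05 and 1 call in DESeq2 with the block, and summed to 41.5, 41.1, 75.7 and 66.2 CPM and 55.6, 76.8, 92.9 and 98.1 CPM, mostly Flt1 (40.4, 39.0, 71.7 and 47.6 CPM in E-cad HI and 34.0, 73.7, 82.7 and 58.7 CPM in E-cad LO cells). T cell markers (1 of 7 tested, not called) summed to 16.7, 16.1, 11.7 and 16.5 CPM and 19.3, 11.6, 17.3 and 28.7 CPM, mostly Lck. Of the neutrophil markers, 3 of 8 were tested and 0 were called by edgeR with the replicate block (2 at an unadjusted p under 0.05, 1 called lower by DESeq2 with the block). The sum of 19366, 12850.2, 17166 and 15543 CPM in E-cad HI and 2632, 12601, 7489 and 7049.9 CPM in E-cad LO cells was almost entirely Ltf, a gene that mammary epithelium also expresses, and Ngp was at 0 in the E-cad HI libraries. No marker was at 0 in all 8 libraries. Leukocytes, glia and stromal cells also express Arp2/3 subunits, and the part of these cells in the subunit values was not tested.

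**Figure D3:**
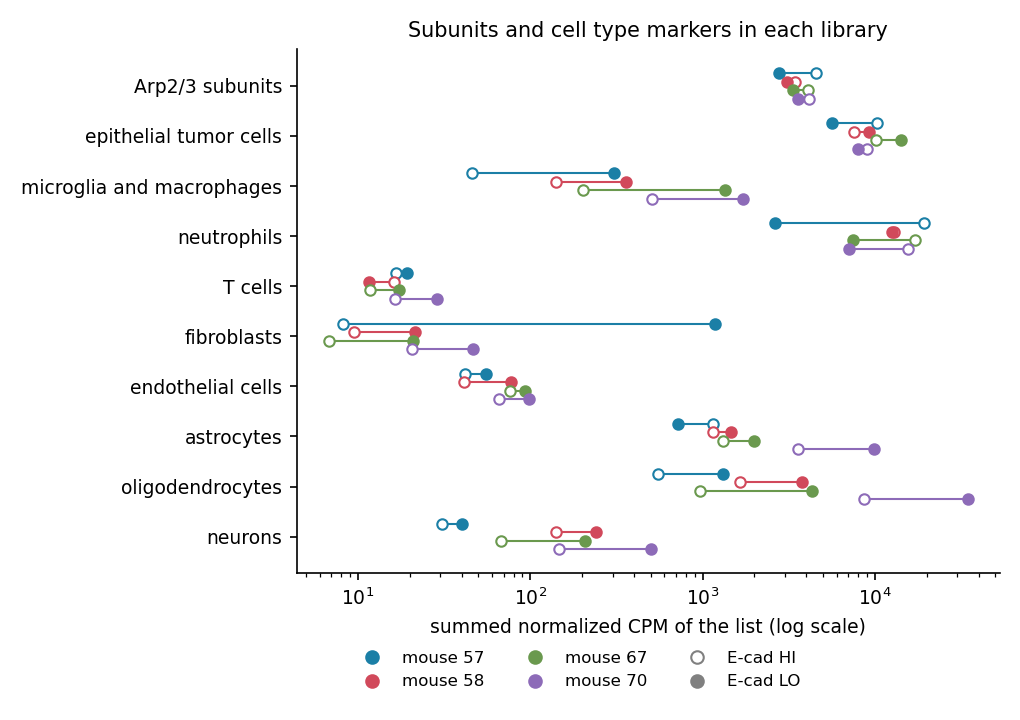
Summed normalized CPM (x axis, log scale) of the 9 subunits and of each marker list; open circles are E-cad HI libraries, filled circles E-cad LO libraries, and lines join the libraries of a mouse. The subunit sums span 2785 to 4547 CPM, lower in E-cad LO cells of each mouse under TMM (scaling by Ppia and Rpl38 flips this in mice 57 and 67), while the microglia and macrophage sum is higher in E-cad LO cells of each mouse.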

How the data were processed

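Bulk mRNA of 8 libraries (4 E-cad HI, 4 E-cad LO) was sequenced as 65-base single reads, which the authors mapped with Hisat 2.1.0 to GRCm38. The deposited values are whole-number counts per gene, not normalized. The methods name Icount for counting and the deposited notes HTSeq, and the strand used and the treatment of reads with several matches are not stated. The 365 of 32259 entries without an identifier, at most 0.0954% of counts in a library, were left out. Populations come from the E-cadherin label and mice from the title. Profiles of the 2 libraries of a mouse, centred within population, had r = 0.394, 0.228, 0.232 and 0.681, and pairs of different mice lay between -0.549 and 0.202.

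edgeR 4.0.16 (R 4.3.3) was run with TMM, filterByExpr and the quasi-likelihood F test, Benjamini-Hochberg adjusted over 13598 genes at 0.05, without a block, since the methods of the study name DESeq2 and no block. The SE given with edgeR estimates is the absolute log2 fold change divided by the square root of F, as the test itself reports no SE. Mice were tested as terms beside the population. Paralog ratios used counts + 0.5, and log2 ratios within mice used CPM + 0.5. Alternatives were DESeq2 1.42.0, its size factors in edgeR, no filter, at least 10 counts in every library, the mouse as a replicate block in each tool, a robust fit, removal of Gm42418 and mitochondrial genes, scaling by Ppia and Rpl38, leaving out each mouse, a sign-flip test and a pseudocount of 5 for the ratios, and another length. Lengths and positions are from GENCODE M21. The edgeR fits were tested on simulated counts with planted changes larger than the differences of the subunits between populations, so changes of that smaller size were not covered. Tables used Python 3.11, scipy 1.17.1 and pandas 2.3.3.

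Named were the members, Actr3b, Ppia and Rpl38, of each other pathway list the members called by edgeR (at most 3 per direction) or else the 3 most abundant, the 5 genes most like the subunits and Arpc3, and the most abundant gene of each marker list. The members and lists were chosen with earlier results of these data known. Floors cover counting error only, since PCR copies are not independent molecules.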

Additional observations from a re-analysis of the deposited data

Results flagged for a closer look

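In groups of 4 libraries, a library was picked out when its gap to the nearest other took up more of the whole range than Dixon's critical value for 4 values. Among 62 such groups (levels and within-mouse ratios of the subunits, Actr3b, Ppia and Rpl38, paralog ratios, marker sums and total counts), a library was picked out in 10. Chance flags about 1 in 20 groups, or 3.1 of 62.

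For the subunits, mouse 58 stood apart for Arpc3 in both populations, with 180.0 CPM, against 72.2 to 84.4 CPM in the other E-cad HI libraries, and 187 CPM, against 38.0 to 54.3 CPM in the other E-cad LO libraries. The E-cad HI library of mouse 58 was low for Arpc2 at 373 CPM, against 456 to 469.6 CPM in the others. For Arpc5l, mouse 70 was high in E-cad LO cells at 197 CPM, against 139.8 to 145 CPM in the others.

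The summed markers of astrocytes in mouse 70 were 3557 CPM, against 1146 to 1309.9 CPM in the other E-cad HI libraries, and 9881 CPM, against 723 to 1978 CPM in the other E-cad LO libraries. Those of oligodendrocytes in mouse 70 were 8618 CPM, against 554 to 1639.9 CPM in E-cad HI cells, and 34587 CPM, against 1321 to 4322 CPM in E-cad LO cells. Fibroblast markers of mouse 57 in E-cad LO cells summed to 1182 CPM, against 20.9 to 46.3 CPM in the others. T cell markers in the E-cad HI library of mouse 67 summed to 11.7 CPM, against 16.1 to 16.7 CPM in the others.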

How the results depend on the processing

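No alternative called a subunit between the populations. Over 17 alternatives, 149 of 153 fold changes of the subunits kept their sign, and the smallest adjusted p was 0.0897. With a mouse left out, with or without the replicate block, values moved over 1.5-fold for Arpc1a (to -0.27 without mouse 57), Arpc2 (to -0.080 without mouse 57), Arpc3 (to -0.71 without mouse 58), Arpc4 (to -0.16 without mouse 57 and -0.50 without mouse 58), Arpc5 (to -0.24 without mouse 57) and Actr3 (to 0.031 without mouse 67 and 0.12 without mouse 58). The leave-outs of a mouse with the replicate block were chosen after seeing the data, and the other alternatives are those listed under processing. The cause of the changes given here was not tested.

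Genes called higher in E-cad LO cells numbered 298 in DESeq2, 23 with no filter on low counts, 3 with at least 10 counts in every library, 99 with the replicate block and 1030 with the replicate block in DESeq2. With a mouse left out they numbered 0 to 425, the latter with the replicate block. Genes called lower numbered 61 in DESeq2, 225 with the replicate block in DESeq2 and 0 to 24 with a mouse left out.

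Genes called between mice numbered 1259 in DESeq2, 2082 with no filter, 103 with at least 10 counts in every library and 146 scaled by Ppia and Rpl38. They numbered 0 to 831 with a mouse left out, where fewer libraries were also tested. Subunits called between mice numbered 0 when scaled by Ppia and Rpl38 and 0 to 1 with a mouse left out, 1 only without mouse 57.

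Scaling by Ppia and Rpl38 moved the median log2 fold change of the subunits to 0.033 and turned Arpc2 to 0.23, Arpc4 to 0.033, Arpc5l to 0.15, Actr2 to 0.062 and Rpl38 to 0.029. Of the other named genes it turned Cttn to 0.13, Wasf2 to 0.39, Jmy to 0.25, Cyfip1 to 0.25, Brk1 to 0.27, Rac1 to 0.068, Cdc42 to 0.16, Coro1b to 0.034, Diaph1 to 0.20, Pfn1 to 0.039 and Cfl1 to 0.35. The median of all genes shifted upward under this scaling, as both reference genes had lower CPM in E-cad LO cells of 3 of 4 mice.

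The log2 fold change of Actr3b, 0.29 in edgeR without the block (adjusted p = 0.8288), was -0.10 with the replicate block, -0.083 with the replicate block in DESeq2 and -0.41 to 0.48 with a mouse left out. That of Wasf2, near 0, was 0.014 in DESeq2, 0.015 with DESeq2 size factors, 0.028 with at least 10 counts in every library, 0.015 without Gm42418 and mitochondrial genes, and -0.17 to 0.11 with a mouse left out. Cfl1 had 0.015 with at least 10 counts in every library and -0.11 to 0.063 with a mouse left out. With a mouse left out, Rac1 ranged from -0.50 to 0.10 and Gmfb from -0.13 to 0.40. The difference in the log2 ratio of Arpc1b to Arpc1a ranged from -0.077 to 0.12, and that of Actr3b to Actr3 from -0.52 to 0.16. For Arpc5l to Arpc5 the difference ranged from 0.078 to 0.24. With 3 libraries per group, no ratio could pass the exact test.

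Fold changes without Gm42418 and mitochondrial genes, with the robust fit or with DESeq2 size factors kept their sign for all 9 subunits. The lowest count of a subunit in a library was 511.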

Other observations

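Genes whose lower library of mouse 58 stood above the highest other library by at least the gap of Arpc3 (1.09 on the log2 scale) numbered 5 of 13598, Arpc3 included. The others, chosen after their values were seen, were Mir6236 (gap 2.78), Tmed9 (1.18), Gltscr1 (1.15) and Eml2 (1.13). Tmed9 was at 94.7, 295, 91.0 and 50.9 CPM in E-cad HI and 62.4, 215, 45.3 and 34.7 CPM in E-cad LO cells. Mir6236 was at 0.767, 23.4, 0.595 and 2.99 CPM in E-cad HI and 0.966, 26.1, 2.02 and 1.61 CPM in E-cad LO cells.

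Among the genes of the pathway lists, DESeq2 with the replicate block called Hcls1, Nckap1l, Rac2, Coro1a, Cyfip2 and Cfl2 higher in E-cad LO cells and Rac3 lower. Nckap1l and Rac2, whose levels follow, were picked after their values were seen. Nckap1l was at 0.0697, 2.84, 2.97 and 5.62 CPM in E-cad HI and 2.97, 6.63, 27.1 and 29.6 CPM in E-cad LO cells (adjusted p in DESeq2 with the replicate block = 3.02e-05, 0.0819 in edgeR with it). Rac2 was at 0, 1.46, 1.34 and 6.76 CPM in E-cad HI and 1.41, 5.12, 19.8 and 24.1 CPM in E-cad LO cells (adjusted p = 0.000135 and 0.103). Both were higher in the E-cad LO library of each mouse, as was the summed level of the microglia and macrophage markers, whose part in these values was not tested.

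Between mice, edgeR called 3 of the 63 tested genes of the pathway lists, beside 1.96% of all genes tested: Wasf3 (adjusted p = 0.0375), Cyfip2 (0.0461) and Coro1a (0.0343). Coro1a was at 0.209, 2.38, 6.47 and 11.2 CPM in E-cad HI and 2.23, 12.6, 27.7 and 26.1 CPM in E-cad LO cells, lowest in mouse 57 in both populations.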
